A study of Mus musculus with 123 samples.

Results

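The genes described are receptors and ligands of the interleukin and tumour necrosis factor (TNF) families in mouse lung, and they are those whose symbol in the array annotation begins with Tnfrsf or Tnfsf, or with Il, a number and r. There were 51 such genes among the 13053 genes on the array that could be tested, and after 7 named exceptions, chiefly lymphocyte receptors such as Tnfrsf4 and Il2ra, 44 genes remained. The rule goes by name and uses no measured value, but it and its exceptions were set with earlier results of these data known. They comprised 27 interleukin receptor genes, 11 TNF receptor genes and 6 genes of TNF ligand name, 1 of which, Tnfsf13os, is a long non-coding RNA in RefSeq, named for the strand opposite to Tnfsf13, and is no ligand.

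Interleukins and the ligands of the TNF family are signals between cells that bind matching receptors on the cell surface. Most interleukin receptors are built from a specific chain and a shared signalling chain and act through Janus kinases and STAT factors, whereas receptors of the IL-1, IL-17 and TNF families act through adaptor proteins that lead to NF-kB. Some receptors of both families bind their ligand without passing on a signal and are called decoys. In allergic lungs, IL-4 and IL-13, which share receptor chains, are known for driving mucus production and airway responsiveness.

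RNA from whole lungs of BALB/c mice was measured on 123 arrays, 1 array for each mouse. Ovalbumin (OVA)-sensitized mice, an established model of allergic asthma, numbered 62, with 8 at each of 0, 2, 6, 48, 72, 96 and 168 h after challenge and 6 at 24 h. Naive, unsensitized mice numbered 61, with 8 at 0, 6, 24, 72 and 168 h and 7 at 2, 48 and 96 h. The study's design describes an OVA challenge of naive as well as sensitized animals, whereas names of naive samples carry the term PBS, so the agent that naive mice received is unsettled. No source used here gives age, sex or doses, or says whether the 0 h mice had been challenged. All values are log2 signals normalized by the robust multi-array average (RMA), and every difference is sensitized minus naive on that log2 scale, so that a difference of 1 is a doubling. A gene was called where its limma p-value, adjusted over all 13053 genes, was below 0.05.

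The arrays carried lung RNA. The lung markers Sftpc, Scgb1a1 and Ager had lowest signals of 14.19, 14.27 and 14.02 over all arrays, and Sftpb ran from 12.998 to 13.85. In sensitized mice at 6 h, replicate 3 lay apart from its group. Its signal of the mucous-cell gene Clca1 was 6.89, against 12.98 to 14.06 in the other 7 sensitized mice and 4.78 to 7.73 in naive mice, and it did not exceed the highest naive mouse in 26 of the 31 members called higher at that time. Replicate 2 did not exceed it in 17 of those 31. Results at 6 h are therefore given with replicate 3 and, where stated, without it. Of the members described in full that differed most at 6 h, all but Tnfrsf25 varied more between sensitized than between naive mice. Il31ra, for example, had SDs of 0.83 and 0.09. The limma SE and p use 1 spread per gene shared by all 16 groups, so at 6 h they do not fully hold this wider spread. On 7 arrays the mean of 8 squamous epithelium markers was 8.36 or more, against 7.20 or less on all others. These were 2 naive arrays at 0 h, 2 naive and 1 sensitized array at 6 h, 1 naive array at 24 h and 1 sensitized array at 48 h.

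To show what lies in front of a few of these genes, the 250 bases upstream of the annotated start are given for 4 members with a single RefSeq window that ends at the gene's start (build GRCm38.p6, written 5′ to 3′ on the gene's strand). Il13ra2 and Tnfsf11 had the highest differences of the interleukin receptors and of the TNF ligands. Tnfrsf18 and Tnfrsf1a, both higher at 6 h, hold a match to TTCNNNGAA, the spacing bound by many STAT factors. Capitals mark the match. These genes were chosen after the values and the matches were known. The windows lie at chrX:147429193-147429442 on the minus strand for Il13ra2, chr14:78308044-78308293 on the minus strand for Tnfsf11, chr4:156026072-156026321 on the plus strand for Tnfrsf18 and chr6:125349473-125349722 on the plus strand for Tnfrsf1a.
Il13ra2: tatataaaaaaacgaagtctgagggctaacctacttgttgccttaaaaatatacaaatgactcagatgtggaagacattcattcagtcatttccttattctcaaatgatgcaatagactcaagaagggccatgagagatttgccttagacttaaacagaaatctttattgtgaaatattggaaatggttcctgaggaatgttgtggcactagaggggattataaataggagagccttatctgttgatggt
Tnfsf11: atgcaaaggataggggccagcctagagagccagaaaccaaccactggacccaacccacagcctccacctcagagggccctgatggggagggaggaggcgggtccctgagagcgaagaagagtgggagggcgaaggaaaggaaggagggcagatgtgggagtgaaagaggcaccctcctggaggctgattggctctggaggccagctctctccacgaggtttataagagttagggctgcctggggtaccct
Tnfrsf18: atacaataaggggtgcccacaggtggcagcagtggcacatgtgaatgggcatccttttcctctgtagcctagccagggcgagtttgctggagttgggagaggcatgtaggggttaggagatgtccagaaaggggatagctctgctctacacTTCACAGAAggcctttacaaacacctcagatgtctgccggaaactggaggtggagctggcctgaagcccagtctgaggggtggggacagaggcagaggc
Tnfrsf1a: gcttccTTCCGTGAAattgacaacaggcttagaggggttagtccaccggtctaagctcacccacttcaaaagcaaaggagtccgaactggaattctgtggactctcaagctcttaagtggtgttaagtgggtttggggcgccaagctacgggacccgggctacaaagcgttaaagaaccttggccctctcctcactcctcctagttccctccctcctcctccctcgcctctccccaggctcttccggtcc

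The match begins 99 bases before the start of Tnfrsf18 and 244 bases before that of Tnfrsf1a. The motifs searched were 3, on both strands, in the 42 windows of the 35 members that RefSeq's table held. TTCNNNGAA occurred in 8 of these windows (19%), against 7.02% of all 32851 windows, and its members were Il18r1, Il1r2, Il31ra, Il7r, Tnfrsf18, Tnfrsf1a, Tnfrsf1b and Tnfrsf25. TTCNNNNGAA, the wider spacing that STAT6 also binds, occurred in 5 (11.9%) against 5.85%, in Il18r1, Il18rap and Tnfsf13b. GGGANTTTCC, a form of the NF-kB site, occurred in 0 of the 42 windows, against 0.356% of all. The first 2 motifs differ in length, so the same stretch of letters is not counted for both at the same ends. A match describes letters in a window, not binding, and no test was made.

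Most members were higher in sensitized lungs at some time, and the most calls fell at 6 h. In whole lung, a change in the number of cells of a type and a change in RNA per cell cannot be told apart. At 0 h, 13 members were called higher and 1 lower, 31.8% of the 44, where 26.5% of all genes were called. At 2 h, 2 were higher, 4.55% against 3.76% of all genes, of which 1.84% were higher. At 6 h, 31 were higher and 4 lower, 79.5% against 57.8%. At 24 h, 21 were higher and 8 lower, 65.9% against 47.7%. At 48 h the counts higher and lower were 12 and 6 (40.9% against 35.1%), at 72 h 17 and 7 (54.5% against 48.5%) and at 96 h 14 and 7 (47.7% against 42.0%). At 168 h, 2 were higher and 1 lower, 6.82% against 4.81%, with 3.40% of all genes higher and 1.41% lower.

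The share called in either direction was near that of all genes at 0, 2, 48, 72, 96 and 168 h. By direction, however, the members leaned more towards higher calls than all genes did at 0, 48, 72 and 96 h. Of all 13053 genes, 1850 were called higher and 1607 lower at 0 h, against 13 and 1 of the 44 members. These counts were 2216 and 2363 at 48 h, against 12 and 6 members. They were 2901 and 3434 at 72 h, against 17 and 7, and 2766 and 2717 at 96 h, against 14 and 7. At 6 h, 24.6% of all genes were called higher and 33.2% lower, whereas 31 of the 35 members called were higher, and the median difference was 0.41 over the members and -0.04 over all genes. At 24 h these medians were 0.23 and -0.02, and 22.8% of all genes were called higher and 24.9% lower. Without sensitized replicate 3, the counts at 6 h were again 31 higher and 4 lower, where 61.9% of all genes were called, 26.2% higher and 35.7% lower.

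**Figure D1:**
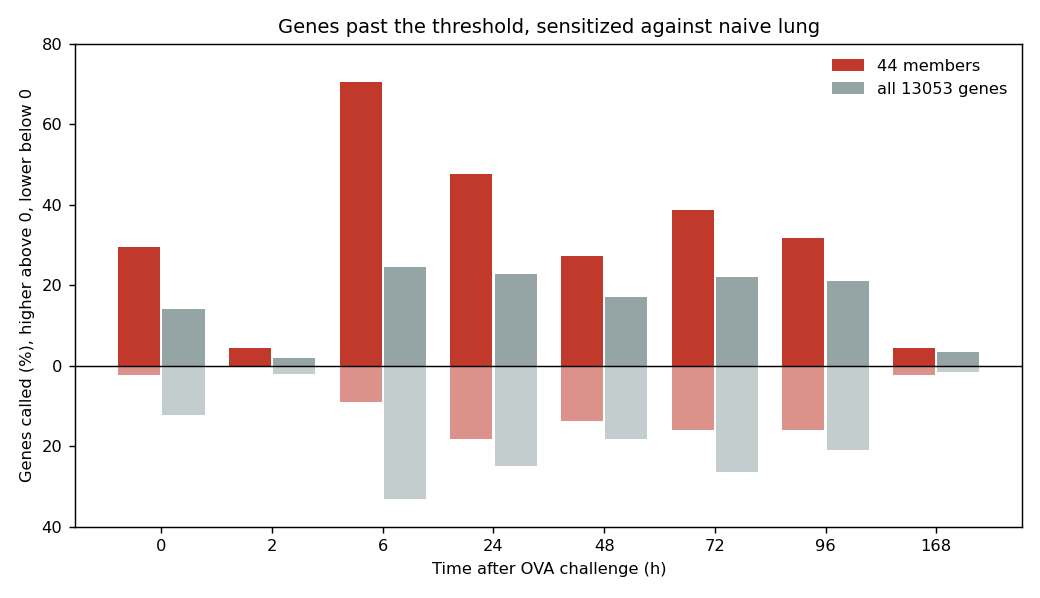
Percent of genes called (limma adjusted p below 0.05) higher (bars above 0) or lower (bars below 0) in sensitized lungs at each time in h, for the 44 members (red) and all 13053 genes tested (grey). The members' bar for higher calls is tallest at 6 h, with 31 of 44 members, where 24.6% of all genes were called higher.

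Over the whole course, 43 members were called at 1 or more times, 97.7% against 86.4% of all genes, and Il17rc, a subunit of the IL-17 receptor, at none. The largest difference fell at 6 h in 24 members, 22 of them higher, at 24 h in 7, at 72 h in 6 and at 48 h in 2. A limma F test of whether the difference varied with time was passed by 38 members (86.4%, against 62.5% of all genes). Signals varied over time in sensitized mice in 41 members (93.2%, against 87.8%) and in naive mice in 10 (22.7%, against 38.4%). Among the 10, Il18r1 had naive means between 10.75 at 6 h and 11.29 at 96 h, the smallest p of the 10 (adjusted p = 7.29e-19).

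**Figure D2:**
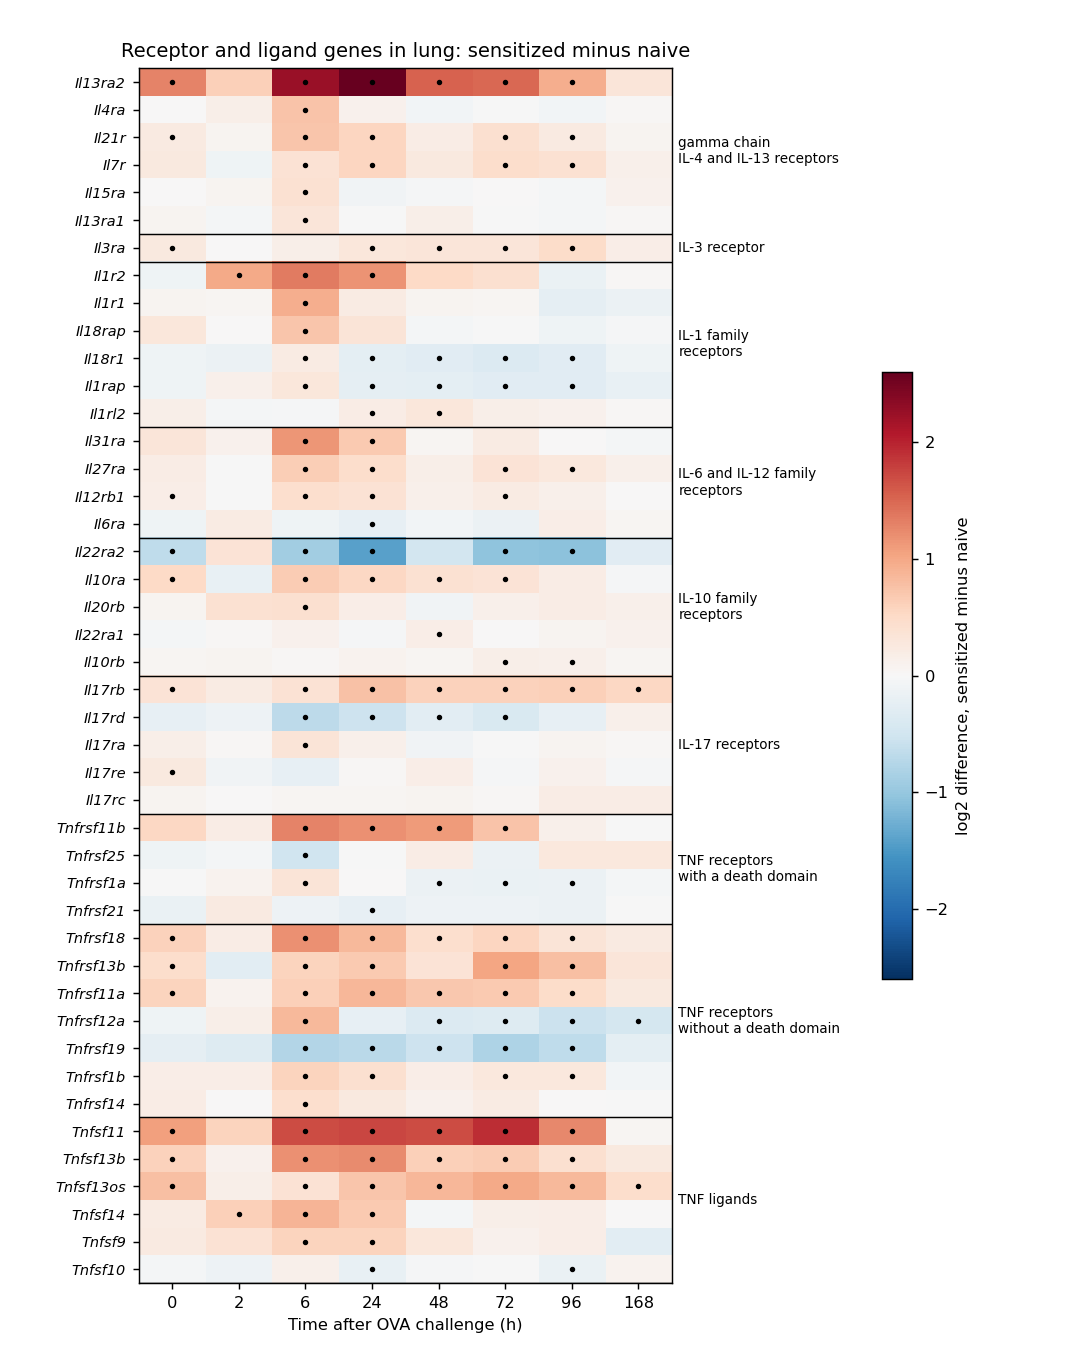
Mean log2 difference, sensitized minus naive, of each of the 44 members (rows, grouped by receptor or ligand class) at 0 to 168 h (columns), with a dot where the gene was called (limma adjusted p below 0.05). Red is higher and blue lower in sensitized lungs, the deepest red is Il13ra2 at 24 h with 2.60, and the deepest blue Il22ra2 at 24 h with -1.41.

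Of the members that bind IL-4, IL-13 or cytokines of the common gamma chain, a class without the excepted Il2ra and Il2rb, 6 of 6 were higher at 6 h, where 24.6% of all genes were. Il13ra2, the decoy receptor for IL-13, had the highest difference of any member. At 24 h its signal ran from 8.60 through a median of 8.95 to 9.22 in 6 sensitized mice, against 6.06, 6.29 and 6.70 in 8 naive mice. The arms did not overlap, and the difference of 2.60 ± 0.27 (SE, limma adjusted p = 9.74e-14, two-sided exact permutation p = 0.000666, the smallest that 6 against 8 mice can give) was 6.06-fold. Il13ra2 was already higher at 0 h, by 1.29, with no overlap between the arms. At 2 h its difference of 0.62 did not pass, and it was higher by 2.25, 1.54, 1.49 and 0.95 at 6, 48, 72 and 96 h. The difference at 24 h exceeded that at 0 h by 1.31 (adjusted p = 0.0256). At 6 h it was 2.56 without sensitized replicate 3, the 1 mouse within the naive range, at 6.29. At 168 h the difference of 0.31 did not pass (adjusted p = 0.546).

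The signalling chains for the same ligands were called at 6 h alone with the probe sets used. Il4ra, the chain that IL-4 and IL-13 receptors share, had signals of 10.83, 11.86 and 12.03 (lowest, median and highest) in 8 sensitized mice at 6 h, against 10.60, 11.02 and 11.14 in 8 naive mice. All but 1 sensitized mouse, replicate 3, lay above every naive mouse, and the difference was 0.73 ± 0.09 (SE, adjusted p = 2.76e-12), or 0.86 without that mouse. At the other 7 times the difference lay between -0.08 and 0.15 and did not pass. The second probe set for Il4ra gave 0.99 at 6 h. Il13ra1, the chain that joins Il4ra to bind IL-13, ran from 10.95 through 11.53 to 11.60 in sensitized mice at 6 h, against 10.87, 11.08 and 11.43 in naive mice, an overlap in 2 of 8 sensitized mice and a difference of 0.32 (adjusted p = 0.000591). Its 3 other probe sets gave 0.44 to 0.62 at 6 h. Of those 3, a pair gave positive differences at all 8 times, 0.20 to 0.62 and 0.12 to 0.61, and the third gave -0.35 at 96 h.

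Il15ra, which presents IL-15, was called at 6 h alone, with 9.69, 9.95 and 10.07 in sensitized mice against 9.46, 9.51 and 9.60 in naive mice. Its arms did not overlap, replicate 3 included, and the difference was 0.41 (adjusted p = 2.41e-11). Il21r, the IL-21 receptor of lymphocytes, was higher at 0, 6, 24, 72 and 96 h, by 0.72 at 6 h and 0.55 at 24 h. Its calls at 0 and 96 h (both 0.23) were lost without some single mice, naive replicates 1, 3 and 5 and sensitized replicates 1 and 6 at 0 h (0.19 to 0.23) and sensitized replicates 2, 6 and 7 at 96 h (0.20 to 0.21). Il7r, which lymphocytes use to survive, was higher by 0.38, 0.57, 0.46 and 0.39 at 6, 24, 72 and 96 h. Il3ra, the IL-3 chain and a class of its own here, was higher at 0, 24, 48, 72 and 96 h, most at 96 h (0.48, adjusted p = 1.85e-05), with a difference of 0.16 at 6 h that did not pass. The Il3ra calls at 0 and 48 h (0.25 and 0.32) were lost without naive replicate 3 or sensitized replicate 1 or 6 at 0 h (0.22 to 0.24) and without sensitized replicate 1 at 48 h (0.21).

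T-cell and dendritic-cell markers were also higher at 6 and 24 h, whereas Il4ra, Il13ra1 and Il15ra were called at 6 h alone with the probe sets used. At 168 h 4 of 6 dendritic-cell markers were still higher, where 0 of the 6 receptors of the common gamma chain class were called. All 6 T-cell markers were higher at 6 h and 5 of 6 at 24 h, and their mean level ran from 9.52 to 9.90 in sensitized mice at 24 h, against 8.66 to 9.65 in naive mice. Of 6 dendritic-cell markers 4 were higher at 24 h, with mean levels of 10.18 to 10.26 in sensitized mice against 9.27 to 9.43 in naive mice. The part of these cells in the members' differences was not tested.

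**Figure D3:**
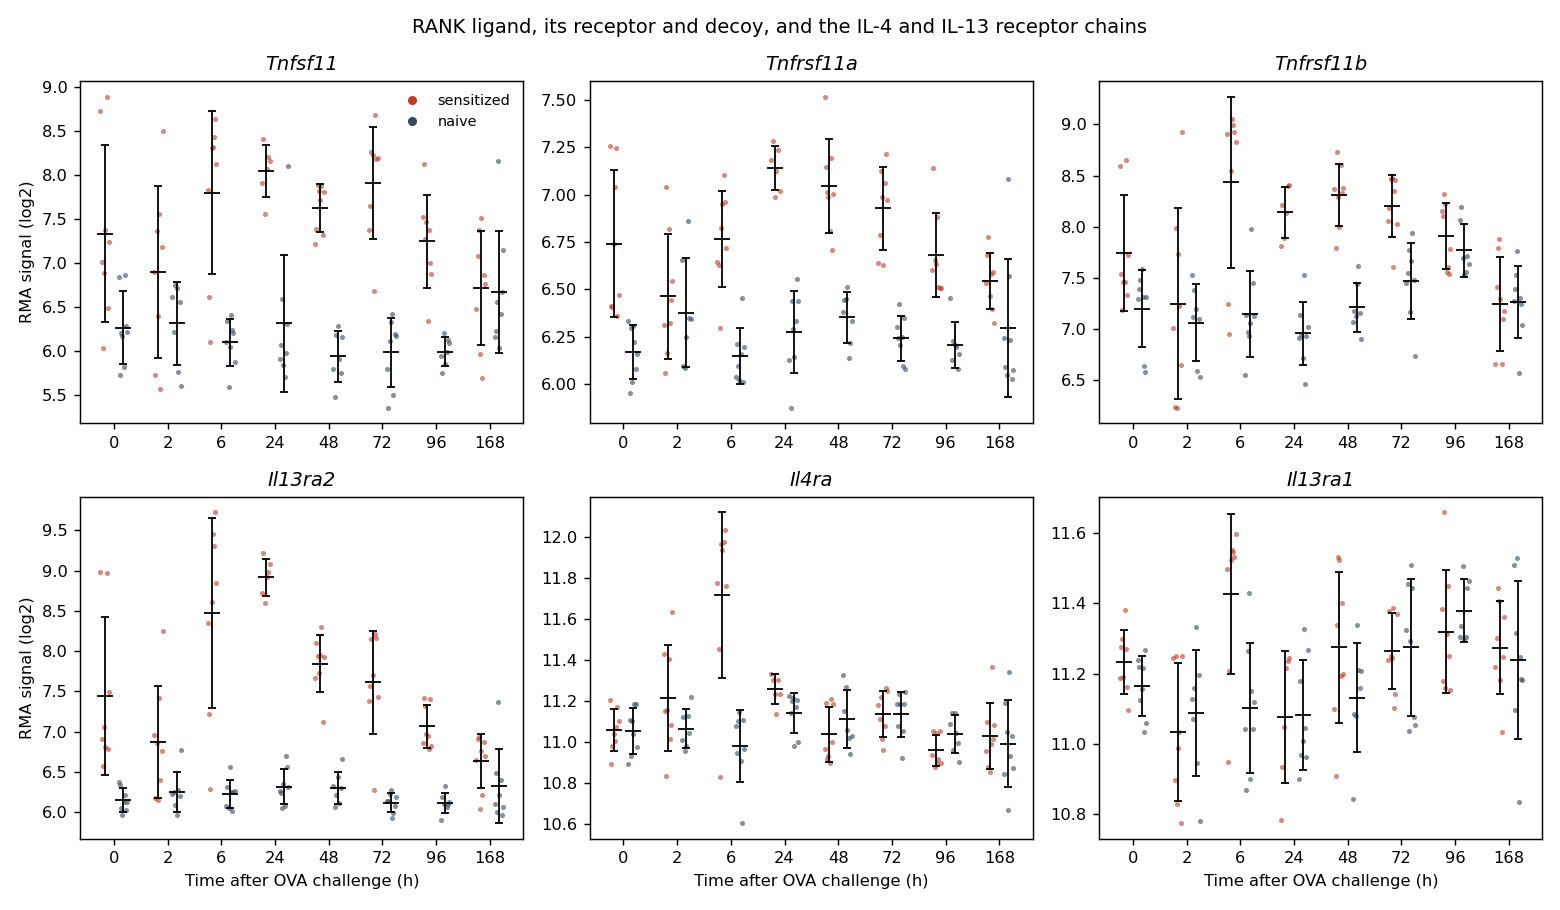
RMA signal (log2, vertical axis) in single mice at 0 to 168 h (horizontal axis) of Tnfsf11, Tnfrsf11a, Tnfrsf11b, Il13ra2, Il4ra and Il13ra1, with sensitized mice in red left of naive mice in dark blue and with the group mean and SD as black bars. The sensitized means of Il13ra2 and Tnfsf11 lie above the naive means at all 8 times, though single mice of the arms overlap at some times. Both genes were called at 0 h and from 6 to 96 h. The sensitized mean of Il4ra lies above at 6 h, where replicate 3 is the low sensitized point at 10.83.

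Of the 6 members of the IL-1 receptor family, 5 were called higher at 6 h, where 24.6% of all genes were. At 24 to 96 h the lower calls were those of Il18r1 and Il1rap. Il1r2, Il1r1, Il1rl2, Il18r1 and Il18rap lie within 467 kb of each other at chr1:40084692-40551707 (GRCm38.p6) but were not all called at the same times or in the same direction. Il1r1, the signalling IL-1 receptor, had signals of 11.48, 12.49 and 12.79 in sensitized mice at 6 h, against 11.18, 11.38 and 11.49 in naive mice. Of 8 sensitized mice 7 lay above every naive mouse, and the difference of 0.94 ± 0.12 (SE, adjusted p = 2.08e-11, exact permutation p = 0.000466) was 1.92-fold. It was 1.05 without replicate 3, and at all other times it lay between -0.23 and 0.21 and did not pass.

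Il1r2, the decoy for IL-1, was among the 2 members called at 2 h. It ran from 7.67 through 8.16 to 8.54 in sensitized mice, against 6.83, 7.06 and 7.52 in naive mice. The arms did not overlap at 2 h, and the difference was 0.99 (adjusted p = 0.0363). That call was lost in 7 of 15 refits that left out 1 mouse (naive replicates 2, 3, 6 and 7 and sensitized replicates 2, 5 and 8), with 0.93 to 0.98. By 6 h it spread from 7.01 through 9.40 to 10.52 in sensitized mice, against 6.93, 7.21 and 9.31 in naive mice, and 4 of 8 sensitized mice lay above every naive mouse. That difference was 1.35 ± 0.28 (SE, adjusted p = 2.51e-05, exact permutation p = 0.0343), and 1.65 without replicate 3. With array weights it was 2.30. Il1r2 was higher by 1.16 at 24 h, with 8.01, 8.72 and 9.30 in sensitized mice against 6.91, 7.22 and 9.53 in naive mice, so that 1 naive mouse lay above all sensitized mice. Later differences did not pass.

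The naive mice with high Il1r2 at 6 h also had high neutrophil markers. The mean of 4 markers (S100a8, S100a9, Cxcr2 and Mmp8) was 12.67, 12.83 and 12.98 in naive replicates 1, 3 and 4, whose Il1r2 was 9.31, 8.44 and 9.001, against 11.24 or less in the other 5 naive mice, whose Il1r2 was 7.29 or less. In sensitized mice these markers ran from 10.38 in replicate 3 to 12.34. The same 3 naive mice had the highest naive signals of Tnfsf14 and Il18rap. At 2 h, 2 of the 4 neutrophil markers were called higher, with mean levels of 10.85 to 12.06 in sensitized mice against 10.42 to 11.03 in naive mice. Only 1 of the 4 was called higher at 6 h, and 0 at 24 h. The mean levels at 24 h were 10.92 to 11.66 in sensitized mice against 10.65 to 11.88 in naive mice. The part of neutrophils in the differences of Il1r2, Tnfsf14 and Il18rap was not tested.

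Il1rap, the accessory chain that IL-1 receptors share, changed direction. It was higher at 6 h by 0.30 (adjusted p = 0.000642), with 6 of the 8 sensitized animals above the naive range, and lower by 0.23 to 0.29 at 24, 48, 72 and 96 h. The calls at 24 and 48 h were lost without sensitized replicate 5 at 24 h (-0.20) or sensitized replicate 1 at 48 h (-0.18). The second Il1rap probe set gave 0.57 at 6 h and then 0.14, 0.12, -0.05 and -0.21 at 24, 48, 72 and 96 h, with the opposite sign at 24 and 48 h. Il18r1, the IL-18 receptor chain, was higher at 6 h by 0.22 (adjusted p = 8.16e-05) and lower at 24, 48, 72 and 96 h. At 72 h it ran from 10.75 through 10.87 to 11.16 in sensitized mice, against 11.23, 11.28 and 11.35 in naive mice. There was no overlap between the arms, and the difference was -0.36 ± 0.05 (SE, adjusted p = 2.9e-09, exact permutation p = 0.000155, the smallest that 8 against 8 can give). At 6 h the naive mean of Il18r1 was at its lowest, 10.75, against 10.97 in sensitized mice, while sensitized means stayed between 10.92 and 11.14 at all times.

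Il18rap, the partner of Il18r1, was called at 6 h alone, by 0.73 (adjusted p = 2.51e-06), with 4 of 8 sensitized animals exceeding all naive ones. Natural killer markers, 4 of 4, were higher at that time, with mean levels of 8.68 to 9.77 in sensitized mice against 8.13 to 8.57 in naive mice, and their part in this difference was not tested. Il1rl2, the IL-36 receptor, was higher at 24 and 48 h, by 0.20 and 0.29, with all 8 sensitized animals above all naive ones at 48 h. The Il1rl2 call at 24 h was lost without naive replicate 1 or 7 or sensitized replicate 2 (0.18 in each case).

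Receptors of the IL-6 and IL-12 families were higher in 3 of 4 members at 6 and 24 h, where 24.6% and 22.8% of all genes were. Il31ra, the IL-31 receptor linked to itch, was higher at 6 and 24 h. Its signals at 6 h ran from 6.37 through 7.68 to 8.52 in sensitized mice, against 6.26, 6.42 and 6.57 in naive mice. Of 8 sensitized mice 6 lay above every naive mouse, replicates 2 and 3 did not, and the difference was 1.14 ± 0.13 (SE, adjusted p = 3.31e-12, exact permutation p = 0.00466), or 1.31 without replicate 3. It was 0.68 at 24 h, with no overlap, and did not pass after that. Il27ra, the IL-27 receptor, was higher at 6, 24, 72 and 96 h, by 0.63 at 6 h. Its call at 96 h (0.28) was lost without naive replicate 6 or 7 or sensitized replicate 2, 4 or 7 (0.22 to 0.27). Il12rb1, a chain of the IL-12 and IL-23 receptors, was higher at 0, 6, 24 and 72 h, by 0.43 at 6 h. Its call at 0 h (0.18) was lost without naive replicate 3 or 6 or sensitized replicate 1, 6 or 8 (0.14 to 0.16). Il6ra, the IL-6 receptor, was lower at 24 h by 0.22 (adjusted p = 0.015) and was called at no other time.

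Among receptors of the IL-10 family, 2 of 5 were higher and 1 lower at 6 h, where 24.6% of all genes were higher and 33.2% lower. The largest difference in this family was a fall. Il22ra2 encodes the soluble decoy for IL-22. At 24 h it ran from 5.63 through 6.20 to 6.50 in 6 sensitized mice, against 7.04, 7.34 and 9.04 in 8 naive mice. The arms did not overlap, and the difference was -1.41 ± 0.24 (SE, adjusted p = 4.49e-07, exact permutation p = 0.000666), 2.67-fold lower. The highest naive value came from replicate 8, an array with high squamous markers, and the difference without it was -1.20. Il22ra2 was also lower by 0.65, 0.90, 1.05 and 1.07 at 0, 6, 72 and 96 h, and the call at 0 h was lost without naive replicate 6 (-0.48). Of the 4 decoy or soluble receptors, Il13ra2, Il1r2 and Tnfrsf11b were higher and Il22ra2 lower at both 6 and 24 h. Among all genes, 24.6% were called higher and 33.2% lower at 6 h, and 22.8% and 24.9% at 24 h.

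Il10ra, the ligand-binding chain of the IL-10 receptor, was higher from 0 to 72 h except at 2 h, by 0.66 at 6 h and 0.54 at 24 h, while its second probe set gave 0.12 and 0.20. With that probe set Il10ra differed by 0.19, 0.04 and 0.04 at 0, 48 and 72 h. Its partner Il10rb was called at 72 and 96 h, by 0.15 and 0.13, and its second probe set gave 0.36 at 72 h. The Il10rb call at 96 h was lost without naive replicate 3, 5 or 6 or sensitized replicate 2, 5 or 8 (0.11 to 0.13). Il20rb was higher at 6 h by 0.42, and Il22ra1, the membrane receptor for IL-22, was higher at 48 h alone, by 0.18 (adjusted p = 0.0386). The Il22ra1 call was lost in 8 of 15 refits that left out 1 mouse (naive replicates 2, 5, 6 and 7 and sensitized replicates 1, 3, 4 and 7), with 0.13 to 0.17. Of the monocyte and macrophage markers, 4 of 4 were higher at 24 h, with mean levels of 12.09 to 12.33 in sensitized mice against 11.12 to 11.45 in naive mice, and their part in the differences of Il10ra was not tested.

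The IL-17 receptors divided, with 2 of 5 higher and 1 lower at 6 h, where 24.6% of all genes were higher and 33.2% lower. Il17rb, the receptor for IL-25, was higher at every time but 2 h. At 24 h it ran from 7.91 through 8.01 to 8.22 in sensitized mice, against 7.16, 7.32 and 7.44 in naive mice. The arms did not overlap at 24, 48, 72 and 96 h, and the difference of 0.75 ± 0.11 at 24 h (SE, adjusted p = 2.64e-09, exact permutation p = 0.000666) was 1.69-fold. At 168 h it was still higher, with 7.52, 7.86 and 8.23 in sensitized mice against 7.01, 7.42 and 7.55 in naive mice, and 7 of 8 sensitized mice lay above every naive mouse (difference 0.54, adjusted p = 6.06e-05).

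Il17rd, a receptor also known as a brake on fibroblast growth factor signalling, was lower. Signals at 6 h ran from 9.27 through 9.60 to 10.51 in sensitized mice, against 10.20, 10.49 and 10.63 in naive mice. Below every naive mouse were 6 of the 8, and the difference was -0.67 ± 0.10 (SE, adjusted p = 1.29e-08, exact permutation p = 0.00264), or -0.78 without replicate 3. It was -0.55, -0.28 and -0.40 at 24, 48 and 72 h, and the call at 48 h was lost without sensitized replicate 6 (-0.25). Of 5 fibroblast markers 4 were lower at 6 h, with mean levels of 11.38 to 12.15 in sensitized mice against 11.84 to 12.47 in naive mice, and their part in the fall of Il17rd was not tested. Il17ra, the shared IL-17 chain, was higher at 6 h alone (0.34, adjusted p = 0.000183), and Il17re, which binds IL-17C, at 0 h alone (0.26, adjusted p = 0.0396). That Il17re call was lost in 8 of 16 refits that left out 1 mouse (naive replicates 1, 2, 3, 5 and 6 and sensitized replicates 1, 5 and 8), with 0.21 to 0.25, and its other probe sets gave -0.03 and 0.13.

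In the TNF family, the ligand RANKL (Tnfsf11), its receptor RANK (Tnfrsf11a) and its soluble decoy osteoprotegerin (Tnfrsf11b) were all higher from 6 to 72 h. These proteins are best known for controlling bone resorption and also act between T cells and dendritic cells. At 72 h Tnfsf11 ran from 6.68 through 8.19 to 8.69 in sensitized mice, against 5.36, 6.15 and 6.42 in naive mice. Sensitized and naive values were fully apart, and the difference was 1.92 ± 0.31 (SE, adjusted p = 1.1e-07, exact permutation p = 0.000155), 3.78-fold. Tnfsf11 was higher by 1.07 at 0 h and by 1.25 to 1.74 at 6, 24, 48 and 96 h. The differences of 0.59 at 2 h and 0.04 at 168 h (adjusted p = 0.963 at 168 h) did not pass. At 24 h 1 naive mouse reached the sensitized range, and 3 of 6 sensitized mice lay above it. Without replicate 3 the difference at 6 h was 1.94.

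Tnfrsf11a was higher at 0 h and from 6 to 96 h. At 24 h it ran from 6.99 through 7.15 to 7.28 in sensitized mice, against 5.88, 6.31 and 6.55 in naive mice, with no overlap and a difference of 0.86 ± 0.13 (SE, adjusted p = 1.08e-08, exact permutation p = 0.000666). Tnfrsf11b was called from 6 to 72 h. Its 6 h signals ran from 6.96 through 8.87 to 9.05 in sensitized mice, against 6.55, 7.10 and 7.98 in naive mice. Of 8 sensitized mice 6 lay above every naive mouse, and the difference of 1.28 ± 0.23 (SE, adjusted p = 1.23e-06, exact permutation p = 0.00342) was 2.43-fold, or 2.81-fold without replicate 3. It was 1.18, 1.10 and 0.73 at 24, 48 and 72 h and 0.14 at 96 h, where it did not pass.

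The B-cell factor BAFF (Tnfsf13b) and its receptor TACI (Tnfrsf13b) were both higher at 0, 6, 24, 72 and 96 h, with their largest differences at different times. Tnfsf13b at 24 h ran from 11.59 through 11.77 to 11.96 in sensitized mice, against 10.06, 10.53 and 10.90 in naive mice. The arms did not overlap, and the difference was 1.22 ± 0.14 (SE, adjusted p = 3.93e-12, exact permutation p = 0.000666), 2.33-fold. At 6 h it was 1.19, with all 8 sensitized animals above all naive ones, replicate 3 included. The differences at 6 and 24 h exceeded that of 0.60 at 0 h, by 0.58 and 0.62 (adjusted p = 0.0137 and 0.0404), and the second probe set gave 1.02 and 1.04 at these times.

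Tnfrsf13b differed most at 72 h, from 10.12 through 10.42 to 10.94 in sensitized mice, against 8.87, 9.50 and 9.995 in naive mice. Both arms stood clear of each other, and the difference was 1.02 ± 0.15 (SE, adjusted p = 1.12e-08, exact permutation p = 0.000155). All 3 measured B-cell markers were higher at 72 h, with mean levels of 11.69 to 12.14 in sensitized mice against 10.96 to 11.86 in naive mice, and of 4 plasma-cell markers 3 were higher and 1 lower, with 11.57 to 12.11 against 10.56 to 10.96. Their part in the difference of Tnfrsf13b was not tested. The Tnfrsf13b call at 0 h (0.45) was lost without sensitized replicate 6 (0.38).

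Tnfsf13os, the non-coding transcript, was higher at every time but 2 h. At 72 h it ran from 10.04 through 10.19 to 10.27 in sensitized mice, against 8.93, 9.21 and 9.46 in naive mice, with no overlap and a difference of 0.98 ± 0.09 (SE, adjusted p = 1.79e-17, exact permutation p = 0.000155). It was higher by less at 6 h (0.37) than at 0 h (0.79), a change of -0.42 (adjusted p = 0.00773). At 168 h it was higher by 0.45, with 6 of 8 sensitized animals exceeding all naive ones.

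Of the 7 TNF receptors without a death domain, 6 were higher and 1 lower at 6 h, and of the 6 genes of TNF ligand name 5 were higher, where 24.6% of all genes were called higher. Of the 4 TNF receptors classed with a death domain, 2 were higher and 1 lower at 6 h, where 33.2% of all genes were called lower. Tnfrsf18 (GITR), a receptor abundant on regulatory and activated T cells, ran at 6 h from 8.24 through 9.52 to 10.02 in sensitized mice, against 7.87, 8.07 and 8.33 in naive mice. Of 8 sensitized mice 7 lay above every naive mouse, and the difference was 1.19 ± 0.13 (SE, adjusted p = 2.32e-13, exact permutation p = 0.000466), or 1.35 without replicate 3. It was called at every time but 2 and 168 h, and the call at 96 h (0.34) was lost without naive replicate 2 or 5 or sensitized replicate 2 (0.30 to 0.33). Tnfsf14 (LIGHT) was the other member called at 2 h, with 7.90, 8.55 and 9.04 in sensitized mice, against 7.61, 7.91 and 8.04 in naive mice (difference 0.63, adjusted p = 0.0175). At 6 h it ran from 7.82 through 9.27 to 9.88 in sensitized mice, against 7.502, 7.97 and 9.02 in naive mice.

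The arms overlapped in 2 of 8 sensitized mice, and the Tnfsf14 difference at 6 h was 0.88 ± 0.16 (SE, adjusted p = 1.88e-06, exact permutation p = 0.0213), or 1.06 without replicate 3. It was 1.38 with array weights, and the second probe set gave 0.36. Its receptor Tnfrsf14 (HVEM) was higher at 6 h alone, by 0.44. Tnfsf9 (4-1BB ligand) was higher by 0.57 at both 6 and 24 h. Tnfsf10 (TRAIL), a ligand that can trigger cell death, was lower at 24 h. It ran from 11.97 through 12.14 to 12.27 in sensitized mice, against 12.15, 12.31 and 12.54 in naive mice, a difference of -0.20 ± 0.08 (SE, adjusted p = 0.0215, exact permutation p = 0.0127). That call was lost when naive replicate 5 or sensitized replicate 2 was left out, with -0.17 in each case. At 96 h the Tnfsf10 difference was -0.17 (adjusted p = 0.0441), and that call was lost in 9 of 15 refits (naive replicates 1, 2, 3, 5 and 6 and sensitized replicates 2, 5, 6 and 7). Its other probe sets gave -0.19 and -0.41 at 24 h and -0.45 and -0.41 at 96 h.

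**Figure D4:**
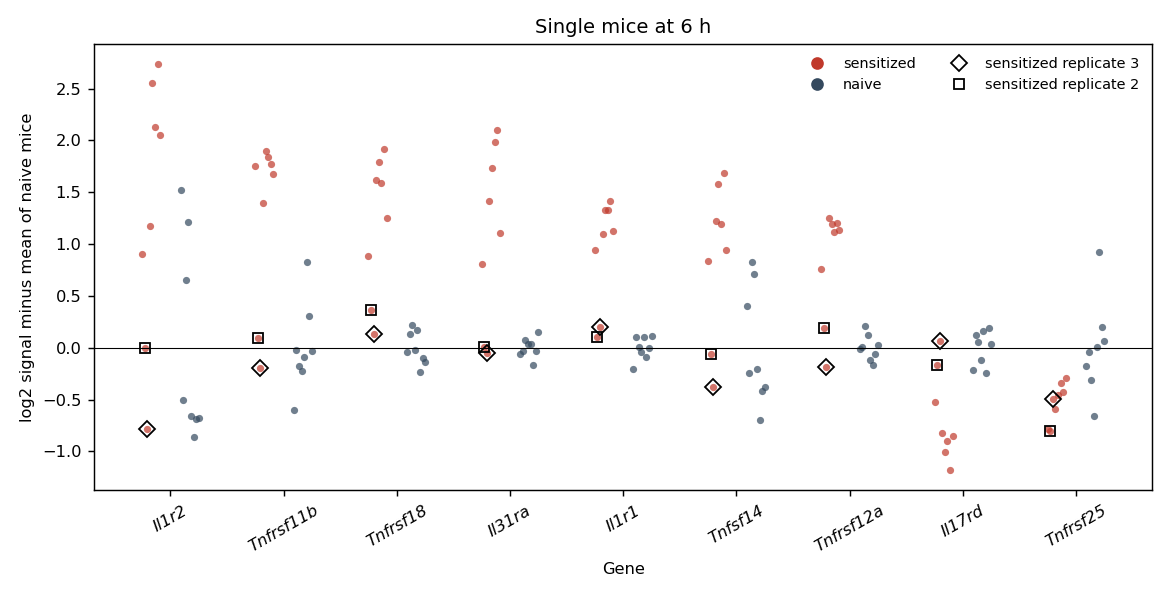
Signal of single mice at 6 h (log2, minus the mean of the naive mice) for the 9 fully described members whose difference peaked at 6 h, with sensitized mice in red left of naive mice in dark blue. Open diamonds mark sensitized replicate 3 and open squares sensitized replicate 2, which lie near the naive mice in most members, and naive mice spread widely in Il1r2 and Tnfsf14.

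The receptors for TNF itself differed. Tnfrsf1b, found mainly on leukocytes and endothelium, was higher at 6, 24, 72 and 96 h, by 0.57 at 6 h and 0.41 at 24 h, and by 0.31 and 0.13 with its second probe set. At 72 and 96 h that probe set gave 0.03 and -0.04. Tnfrsf1a, present on most cells, was higher at 6 h, with 11.56, 12.08 and 12.16 in sensitized mice against 11.62, 11.65 and 11.76 in naive mice. Replicate 3 lay below every naive mouse and the other 7 above all of them, and the difference was 0.33 (adjusted p = 2.54e-09), or 0.39 without replicate 3. Tnfrsf1a was then lower by 0.15, 0.17 and 0.15 at 48, 72 and 96 h (adjusted p = 0.00975, 0.00195 and 0.0105).

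Tnfrsf12a (Fn14), the receptor for TWEAK in injured epithelium and stroma, also changed direction. At 6 h it ran from 10.01 through 11.33 to 11.45 in sensitized mice, against 10.04, 10.19 and 10.40 in naive mice. Of 8 sensitized mice 6 lay above every naive mouse and replicate 3 below all of them, and the difference was 0.83 ± 0.11 (SE, adjusted p = 1.91e-10, exact permutation p = 0.00357), or 0.98 without it. From 48 h on it was lower, by 0.36, 0.34 and 0.57 at 48, 72 and 96 h, with all 8 sensitized animals below all naive ones at 96 h. At 168 h it was lower by 0.45, with 9.43, 9.76 and 10.16 in sensitized mice against 9.92, 10.30 and 10.57 in naive mice (adjusted p = 0.00462). Its second probe set gave 0.83 at 6 h and -0.31 at 72 h. In all, 4 members were called in both directions, Il18r1, Il1rap, Tnfrsf12a and Tnfrsf1a, 9.09% against 7.81% of all genes.

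**Figure D5:**
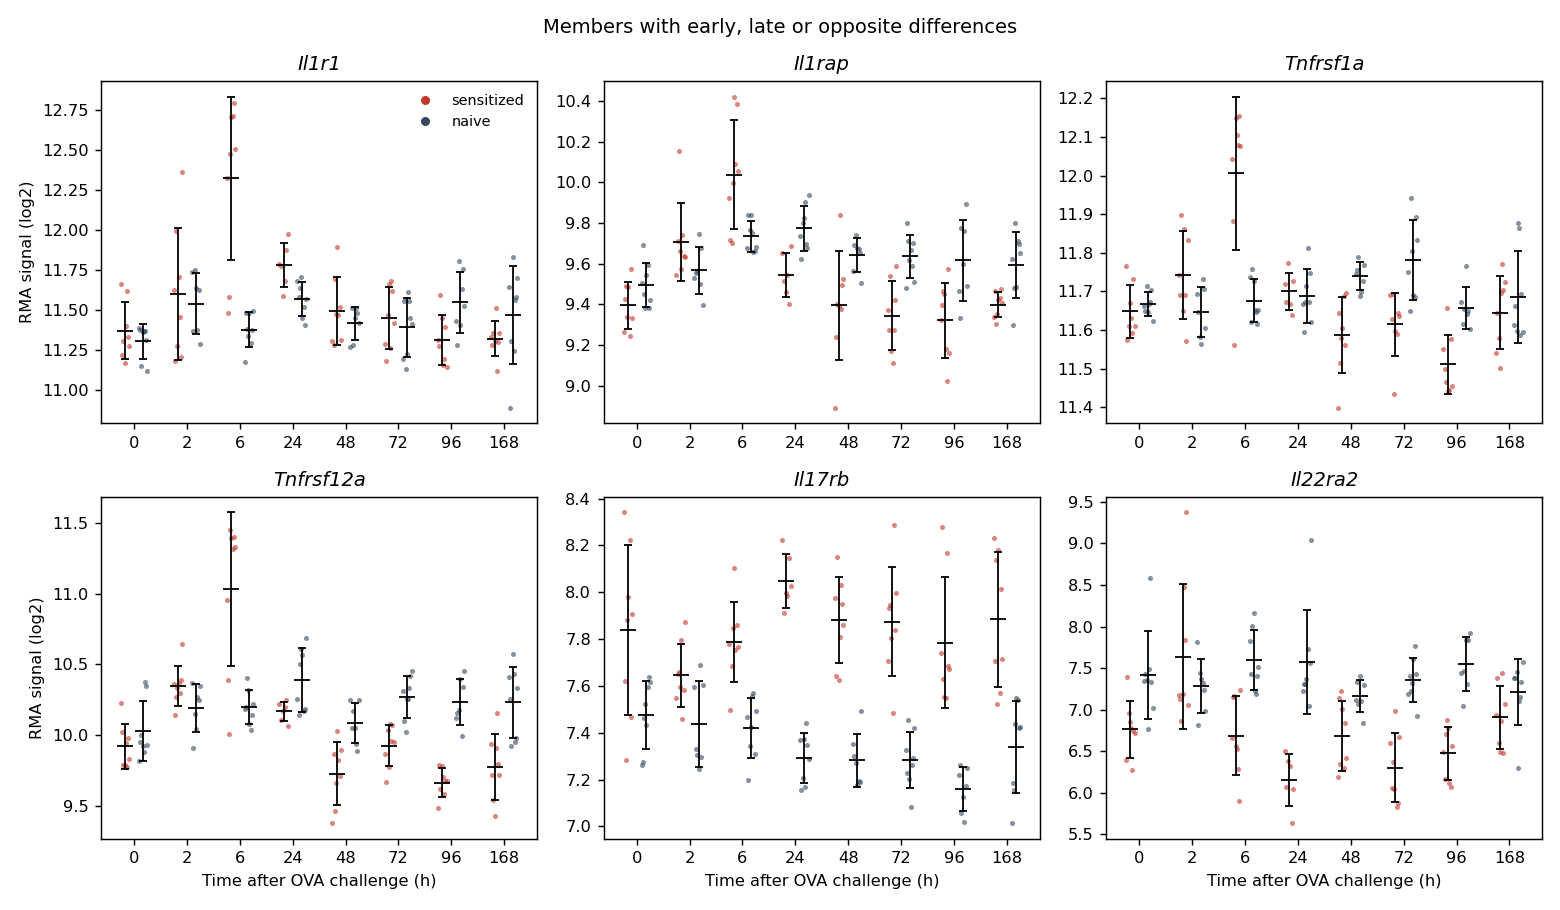
RMA signal (log2, vertical axis) in single mice at 0 to 168 h (horizontal axis) of Il1r1, Il1rap, Tnfrsf1a, Tnfrsf12a, Il17rb and Il22ra2, with sensitized mice in red left of naive mice in dark blue and with the group mean and SD as black bars. Il1r1 differs at 6 h, Il1rap, Tnfrsf1a and Tnfrsf12a are higher at 6 h and lower later, Il17rb stays higher to 168 h, and Il22ra2 is lower at 0, 6, 24, 72 and 96 h.

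Among the TNF receptors that were lower, Tnfrsf19 (TROY), an orphan receptor of epithelial and stromal progenitors, fell most. At 72 h it ran from 9.98 through 10.35 to 10.69 in sensitized mice, against 10.93, 11.19 and 11.35 in naive mice. The arms did not overlap, and the difference was -0.81 ± 0.13 (SE, adjusted p = 7.74e-08, exact permutation p = 0.000155). It was lower from 6 to 96 h, and its second probe set gave -0.27 at 72 h and 0.03 at 96 h. Of 5 fibroblast markers 3 were lower and 1 higher at 72 h, with mean levels of 11.36 to 11.88 in sensitized mice against 11.91 to 12.15 in naive mice, and 3 of 5 endothelial markers were lower, with 12.10 to 12.38 against 12.48 to 12.59. Epithelial markers went the other way, with 3 of 4 higher and 0 lower at 72 h. Their mean levels were 11.20 to 11.44 in sensitized mice against 10.91 to 11.26 in naive mice. The part of these cell types in the falls of Tnfrsf19 and Tnfrsf12a was not tested.

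Tnfrsf25 (DR3), a death receptor of T cells that binds TL1A, was lower at 6 h alone. It ran from 8.15 through 8.48 to 8.67 in sensitized mice, against 8.30, 8.94 and 9.88 in naive mice. The arms overlapped in 6 of 8 sensitized mice, and the difference was -0.52 ± 0.13 (SE, adjusted p = 0.000496, exact permutation p = 0.00497). T-cell markers went the other way at 6 h, with 6 of 6 higher, and their part in this difference was not tested. Tnfrsf21 (DR6), another death receptor, was lower at 24 h by 0.22 (adjusted p = 0.0205), its only call. It was lost without naive replicate 8, an array with high squamous markers (-0.18), and the second Tnfrsf21 probe set gave -0.09.

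How far the members' differences had changed since 0 h was tested gene by gene, with the sign kept, so that a negative change means a move towards lower values in sensitized mice and not a difference of smaller size. At 6 h the change was positive in 17 members and negative in 4 (24.6% of all genes were called in this test). Tnfrsf12a and Il4ra had the smallest adjusted p-values, with changes of 0.94 (adjusted p = 3.61e-06) and 0.73 (adjusted p = 4.54e-06). Of the 4 negative changes, those of Tnfrsf19 and Il17rd were falls that had deepened, with differences of -0.76 and -0.67 at 6 h against -0.23 and -0.21 at 0 h. The other 2 were Tnfsf13os, which was higher by less, and Il17re, with -0.20 at 6 h against 0.26 at 0 h.

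At 2 h the change was positive in 3 members and negative in 3 (6.69% of all genes). The negative ones were Tnfsf13os, Il10ra and Tnfrsf13b, which were higher at 0 h and did not pass at 2 h, with changes of -0.64, -0.71 and -0.72. The positive ones were Il22ra2, with a difference of 0.35 at 2 h that did not pass against -0.65 at 0 h, and Il6ra and Tnfrsf21, called at neither time. At 24 h the change was positive for Il13ra2, Il1r2 and Tnfsf13b (5.49% of all genes), and at 72 h it was negative for Il18r1 (2.54%), whose difference was -0.36 against -0.12 at 0 h. By limma at 48, 96 and 168 h 0 members passed, where 3, 6 and 12 of 44 had an unadjusted p below 0.05, and 0, 3.12 and 1.94% of all genes passed.

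Related genes outside these names were examined as lists, each at the time with most calls. Of 20 measured interleukin ligands, 14 were higher and 3 lower at 6 h, with a median difference of 0.55. Of 8 further receptor subunits, some of them shared by several cytokines, 6 were higher and 2 lower at 6 h. Csf2rb2 and Csf2rb, both beta chains for IL-3, were higher by 1.07 and 0.72, Osmr, the partner of Il31ra, by 0.67, and Crlf2, the receptor for TSLP, by 0.43. Of 18 genes of the JAK-STAT pathway 12 were higher and 3 lower at 6 h, led by Irf4 (1.71) and the feedback inhibitors Socs3 (1.38) and Cish (1.25), and by Stat4 (0.91).

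Of 12 TNF family genes with other names 8 were higher and 1 lower at 6 h, with Lta (lymphotoxin alpha) at 1.38, Cd40 at 1.09, Fasl at 0.92 and Tnf at 0.91. Of 18 TNF receptor adaptors and NF-kB genes 12 were higher and 3 lower at 24 h, with Nfkbie and Tnfaip3, both inhibitors of NF-kB, at 0.86 and 0.78, and the NF-kB subunits Rel and Nfkb2 at 0.83 and 0.58. Of 9 genes of IL-1 and IL-17 receptor signalling 4 were higher and 1 lower at 6 h, with the adaptor Myd88 at 0.94, and Nfkbiz, Irak3 and Map3k7 at 0.42, 0.20 and 0.17. The median difference of all genes was -0.04 at 6 h and -0.02 at 24 h, and 57.8% and 47.7% of all genes were called at these times.

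RNA quality moved with the arms at 3 times. The difference between the 3′ and 5′ actin control probe sets was lower in sensitized than in naive mice by 0.18 at 6 h and 0.13 at 24 h and higher by 0.29 at 168 h (exact permutation p, adjusted over the 8 times, = 0.0224, 0.0213 and 0.0319). Its part in the members' differences was not tested.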

How the data were processed

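Whole-lung RNA of single mice was hybridised to Affymetrix mouse arrays. The deposited log2 values were normalized by RMA, per the submitters' processing notes, in which no version is given, and they carry no detection call. Of 25697 probe sets, 10 were controls, 22478 had 1 gene symbol in the platform annotation, 259 several and 2950 none. Genes were named from probe sets with 1 symbol, and where a gene had several, the one of highest mean signal was used, which left 13053 genes. The 44 members had 66 probe sets, 18 members having several. Array medians lay between 9.32 and 9.44, and no pair of arrays correlated above 0.99732, so each array was counted as 1 mouse. The number of arrays limits the precision.

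limma 3.58.1 in R 4.3.3 (lmFit and eBayes) was fitted with 1 mean for each of the 16 groups, 107 residual degrees of freedom and Benjamini-Hochberg adjustment over all genes, with a threshold of 0.05. For 20 members described in full a two-sided exact permutation test of the difference of means over mice is given unadjusted (scipy 1.17.1). It was run on the same mice, at the time chosen for the largest difference. That choice favours a small p, so the permutation p is a description and no separate support. Described members were those whose difference of largest size over the 8 times was a called one, taken at that time, the 14 highest and the lowest, of which 6 qualified (Tnfrsf21 and Il6ra, whose largest difference was an uncalled one at 2 h, did not). The fit was run on simulated data for the 6 h comparison, with 1 spread per gene in all groups. It called 85 of 100 genes changed by 0.5, 94 of 100 changed by 1 and 12 of 12853 unchanged genes. The wider spread of sensitized mice at 6 h was not simulated, so these counts do not describe the fit under it. Promoter sequences are from RefSeq (GRCm38.p6).

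The members, the lists of pathway genes and markers, and the alternatives were chosen with earlier results of these data known. Alternatives were other choices of probe set, a low-signal filter, median centring, quantile normalization, array weights, another prior, a fit for each time alone, arrays with high squamous markers left out, and each mouse left out in turn. The 6 h comparison without sensitized replicate 3 in a fit over all genes was added after seeing the data.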

Additional observations from a re-analysis of the deposited data

Results flagged for a closer look

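For 10 of the 20 members described in full, the difference between sensitized and naive mice at its peak time was itself different from that at 0 h by limma (adjusted p below 0.05). The difference at 6 h minus that at 0 h was 1.46 for Il1r2, 0.94 for Tnfrsf12a, 0.88 for Il1r1, 0.82 for Il31ra, 0.67 for Tnfsf14, 0.59 for Tnfrsf18 and -0.46 for Il17rd. At 24 h minus 0 h it was 1.31 for Il13ra2 and 0.62 for Tnfsf13b, and at 72 h minus 0 h it was -0.24 for Il18r1. For the other 10 this test did not pass. Without sensitized replicate 3 at 6 h, Tnfrsf11b passed it too, with 0.95 (adjusted p = 0.0137, against 0.0856 with that mouse). The members and times were chosen for large differences, so the count of 10 is a description and supports nothing. Of all genes, 24.6% passed this test at 6 h, 5.49% at 24 h and 2.54% at 72 h.

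In naive mice at 24 h, the Il22ra2 signal of replicate 8 was 9.04, far from the next highest mouse at 7.73. It was the only sample set apart by Dixon's test among the 40 groups of described members tested, where chance sets apart about 1 in 20 groups. That array was also among the 7 with high squamous epithelium markers. The difference without it was -1.20, against -1.41 with it.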

How the results depend on the processing

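The 20 described members kept their direction and their call under each processing alternative that gave them a value (177 values in all). The low-signal filter gave none for 12 of the 20, which it removed, Il13ra2, Tnfsf11, Il1r2, Tnfrsf11b, Tnfrsf18 and Il31ra among them. With 1 mouse left out, Tnfsf10 alone of the 20 lost its described call, at 24 h. The low-signal filter kept 19 of the 44 members, and the counts called among those 19 were 2, 0, 14, 12, 7, 11, 11 and 1 at 0, 2, 6, 24, 48, 72, 96 and 168 h, 17 for the test over time of the difference and 18 for change in sensitized mice. Fewer members tested is the construction of that filter. At 2 h, where limma with the filter called 0, it called 2 without the filter, and both are named in the report. With array weights the counts were 22 at 0 h, 4 at 2 h, 9 at 168 h and 31 for change over time in naive mice, and the cause was not tested. The mean of all probe sets gave 1 at 2 h. With 1 mouse left out at a time (members only, with the prior and p limit of the full fit) the counts ran from 10 to 16 at 0 h, 1 to 3 at 2 h, 35 to 37 at 6 h, 27 to 31 at 24 h, 15 to 21 at 48 h, 24 to 26 at 72 h, 18 to 24 at 96 h and 3 to 5 at 168 h. At 2 h the count was 1 without naive replicate 2, 6 or 7 or sensitized replicate 2 or 8, and at 168 h it was 5 without naive replicate 4. Every member called at 6, 72 and 168 h kept its call without any 1 mouse. At 0 h, 6 of 14 lost it for some mouse, at 2 h 1 of 2 (Il1r2), at 24 h 4 of 29, at 48 h 4 of 18 and at 96 h 5 of 21. No paired analysis was possible because the labels number mice in no way that ties the arms together. Signals carry no detection call, so no member's level could be set against background.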
